A study of Homo sapiens with 2 samples.

Results

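miR-483 is the microRNA (miRNA) hairpin that lies within IGF2, the gene for insulin-like growth factor 2, and its 3p and 5p arms, miR-483-3p and miR-483-5p, were followed here in a human oral squamous cell carcinoma line. Both were taken by exact name from the authors' deposited table, as 2 of its 1178 miRNA names. They were chosen by the measured ratio between the libraries, the largest toward the invasive cells, so those ratios are a description, and no test was made of them. The study compared 2 cultures of UM-SCC6, with 1 small RNA library each. One was the parental line. The other, UM-SCC6-M, was grown from cells that had crossed a matrix channel of a microfluidic chip, a selection repeated over 3 rounds, and the labels call it highly invasive with some mesenchymal features. No drug, transgene or knockout is labelled for either culture, and the labels do not say whether UM-SCC6-M descends from 1 cell or from many. No difference below has a replicate check.

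A miRNA hairpin is cut in the nucleus and again in the cytoplasm, and the 2 arms of its stem can each be loaded into an Argonaute protein, which pairs with messenger RNAs and lowers their output. IGF2 is an imprinted fetal growth factor gene, expressed in most tissues from the paternal copy. miR-483-3p is reported to repress BBC3, which encodes the pro-apoptotic protein PUMA, and SMAD4, a mediator of TGF-beta signals. miR-483-5p is reported to act on transcripts such as SOCS3, an inhibitor of cytokine signalling. Both arms are known to be abundant in IGF2-rich tumours such as Wilms tumour and adrenocortical carcinoma.

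In the GENCODE annotation of GRCh38 the MIR483 gene spans 76 bases on the minus strand, chr11:2134134-2134209. It is intronic in 9 annotated IGF2 transcripts and in 1 read-through transcript of INS and IGF2, all on the same strand, and overlaps no exon of these. The longest form of that intron runs from position 2133666 to 2135366. Another imprinted hairpin, MIR675, lies within H19, a maternally expressed non-coding RNA gene, 137.3 kb away on the same strand (chr11:1996759-1996831). These positions were found by gene name in the annotation, not in the deposited table.

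The arms of miR-675 are shown because they come from the same imprinted domain and are the local comparison for miR-483. The next 5 are shown because they follow miR-483-3p in the order of ratios among the more abundant miRNAs. Capitals mark the seed, bases 2 to 8, which chiefly sets what a miRNA pairs with. The sequences are RefSeq's, build GRCh38.p14.
miR-675-5p: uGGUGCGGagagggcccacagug
miR-675-3p: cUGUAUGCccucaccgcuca
miR-424-3p: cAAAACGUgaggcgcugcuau
miR-374b-5p: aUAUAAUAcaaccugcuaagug
miR-374c-3p: cACUUAGCagguuguauuauau
miR-450a-5p: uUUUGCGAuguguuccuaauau
miR-4521: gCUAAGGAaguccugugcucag
These 7 miRNAs carry 7 distinct seeds. miR-374b-5p and miR-374c-3p come from opposite strands of 1 stretch of the X chromosome, so the 2 names stand for 1 measurement.

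Levels are given as recovered reads, as RPM (reads per 1000000 miRNA reads of the library) and as normalized reads, the values scaled between libraries by the authors. In all, 8182660 miRNA reads were recovered for the parental line and 7699225 for its invasive derivative. Brackets give exact 95% Clopper-Pearson counting intervals, which cover counting error only, since reads copied by PCR are not independent molecules.

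miR-483-3p was read 433 times in UM-SCC6-M and 14 times in the parental line. That is 56.2 RPM (51.1 to 61.8) against 1.71 (0.935 to 2.87), and 51.7 against 1.86 normalized reads. The arm was therefore at a moderate level in the invasive cells and close to the lower limit of the table in the parental cells. miR-483-3p was 26.9-fold higher in the UM-SCC6-M library (16.4 to 51.3), a log2 ratio of 4.75 (4.03 to 5.68). In bulk RNA, more cells that make a miRNA and more of it per cell cannot be told apart.

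The other arm, miR-483-5p, was read 142 times in UM-SCC6-M and 7 times in the parental line. Its level was 18.4 RPM (15.53 to 21.7) against 0.855 (0.344 to 1.76). The authors list values below 1 normalized read as 0, and the parental value of miR-483-5p is listed as 0. Its 7 parental reads, or 0.93 normalized reads, were recovered from the deposited fold change and the 16.96 normalized reads of the UM-SCC6-M library. miR-483-5p was 17.1-fold higher in the UM-SCC6-M library (8.62 to 46.2), a log2 ratio of 4.09 (3.11 to 5.53). The intervals of the 2 arms overlap over most of their length.

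With both arms summed, the hairpin gave 575 reads in UM-SCC6-M and 21 in the parental line. The sum was 24.1-fold higher (15.9 to 40.1), from 2.79 to 68.7 normalized reads. The hairpin thus contributed 74.7 RPM in the invasive cells and 2.57 RPM in the parental cells. Even at its higher level this is a small part of the library. By reads, miR-483-3p was at rank 163 of 543 miRNAs in UM-SCC6-M and at rank 419 in the parental line. miR-483-5p was at ranks 234 and 498.

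**Figure D1:**
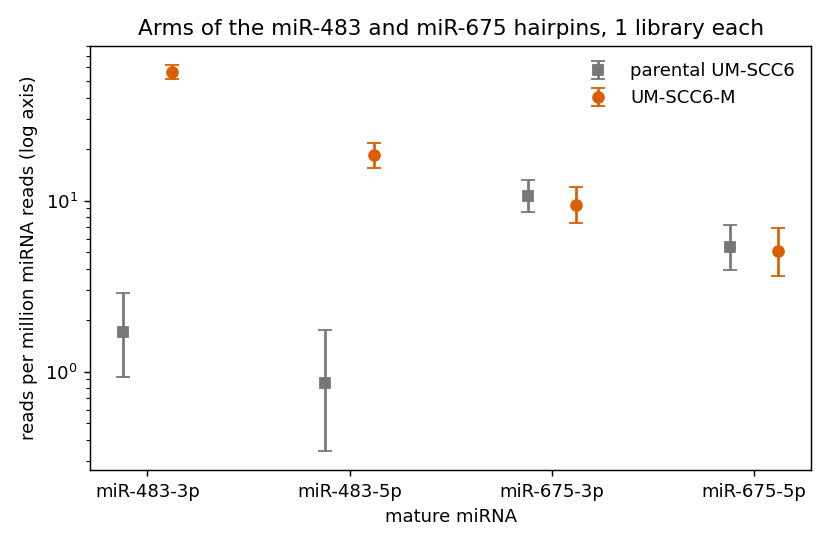
Level in RPM (log axis) of both miR-483 arms and both miR-675 arms, with squares for the parental library, circles for the UM-SCC6-M library and bars for the exact 95% counting interval. The miR-483 arms are at 56.2 and 18.4 in the UM-SCC6-M library against 1.71 and 0.855 in the parental library, while the miR-675 arms have overlapping intervals.

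In the authors' deposited table miR-483-3p stands at 4.7966 on the log2 scale, with q = 1.09e-13. The authors' deposited table places miR-483-5p at 4.1881 on the log2 scale, with q = 0.00011222. Both carry the authors' mark for selected miRNAs in that deposited table, which 44 of the 854 entries with a deposited p-value have, or 5.15%. That mark rests on the contrast the arms were chosen by, so nothing is read from it. These q-values compare the 2 libraries and not the 2 conditions.

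In the size of the ratio, which is what the arms were chosen for, miR-483-3p was at rank 1 of the 543 miRNAs. miR-483-5p was at rank 3, behind miR-4454 at a log2 ratio of 4.52 on 89 reads against 3. Of the 179 miRNAs whose higher library had 50 or more normalized reads, 13 were at least 2-fold higher in UM-SCC6-M, a background of 7.26%, and 23 were at least 2-fold lower, or 12.8%. miR-483-3p is 1 of the 13, and nothing is read from its being among them. miR-483-5p lies under that floor. At a floor of 10 normalized reads, which it passes only through its UM-SCC6-M value, 21 of 288 were at least 2-fold higher (7.29%) and 45 at least 2-fold lower (15.6%). The median log2 ratio of those 288 was -0.08, and the central 90% lay between -1.73 and 1.20.

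Just below miR-483-3p at the floor of 50 came miR-424-3p, of a cluster on the X chromosome, at 4.08-fold higher (3.68 to 4.53) with 2026 reads against 446. It was followed by miR-374b-5p at 3.30-fold, with miR-374c-3p at the same value, miR-450a-5p at 2.80-fold and miR-4521 at 2.77-fold. These miRNAs rest on more reads, so their intervals are narrower than those of the miR-483 arms.

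**Figure D2:**
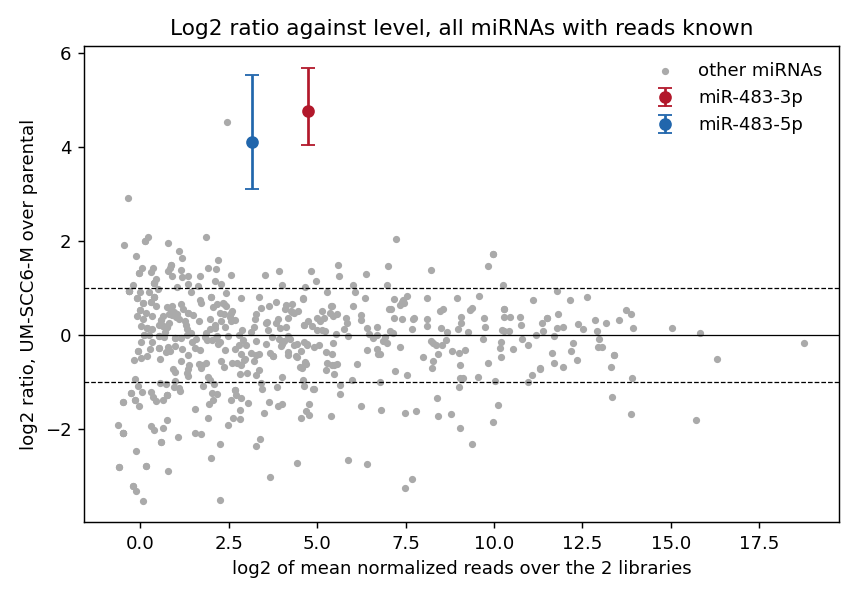
Log2 ratio, UM-SCC6-M over parental, against the log2 of the mean normalized reads of the 2 libraries for the 543 miRNAs whose reads are known in both. Grey points are other miRNAs, dashed lines mark 2-fold, and bars on the miR-483 arms are exact 95% counting intervals, with the arms at 4.75 and 4.09. The grey point beside them, at 4.52, is miR-4454.

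The neighbours of the miR-483 arms in level are given as a scale. Because the arms were chosen for their ratios, that their neighbours differ less between the libraries follows from the choice. The 10 miRNAs next to miR-483-3p in that library, 5 on each side, had 47.4 to 58.0 normalized reads there. Their parental levels lay between 27.1 and 168.2, against 1.86 for miR-483-3p. They include miR-210-3p, the hypoxia-induced miRNA, at 56.8 against 52.1, and miR-28-5p at 47.4 against 34.2. The 10 nearest to miR-483-5p had parental levels between 6.78 and 101.7 normalized reads, against 0.93 for miR-483-5p. One of these was miR-218-5p, which the title of the series names. It had 134 reads in UM-SCC6-M, near the 142 of miR-483-5p, but 765 in the parental library.

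Seen from the parental side, the 10 miRNAs nearest to miR-483-3p, with ties taken in order of name, had 13 or 14 reads there and between 0.72 and 4.54 normalized reads in UM-SCC6-M, against 51.7 for miR-483-3p. The highest of them was miR-210-5p. Of those tied with miR-483-5p at 7 parental reads, the 10 next to it by name had 1.07 to 3.34 normalized reads in UM-SCC6-M. At so few reads a miRNA enters the comparison only if the other library lists it, so the last range has a floor set by the table.

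The miRNAs whose pattern was most like that of miR-483 were sought by the smallest absolute difference in log2 ratio, over 2 libraries, among 518 miRNAs with at least 10 reads in 1 of them. For both arms the closest were miR-4454 and the other arm. miR-4454 had 89 reads against 3, a log2 ratio of 4.52 (3.14 to 7.04), so its interval covers the values of both miR-483 arms. No other miRNA came within 1 log2 unit of either arm. The next was miR-6873-3p at 2.90 on 12 reads against 1, then let-7c-3p and miR-589-3p at 2.08. With 2 libraries, likeness of this kind means only a similar ratio. The arms were chosen for the largest ratio, so that few miRNAs lie near them follows in part from the choice.

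Which arm prevailed was then compared between the libraries, a quantity that does not depend on the scaling. In the UM-SCC6-M library the 3p arm held 75.3% of the reads of the hairpin (71.6 to 78.8). In the parental library it held 66.7% (43.0 to 85.4). The 3p arm was thus the more abundant in both, by 3.05 to 1 and by 2 to 1, although the parental interval includes equal arms. The difference in the log2 of 3p over 5p reads was 0.65, with an exact conditional interval from -0.97 to 2.05. A shift in arm use was not detectable with 21 parental reads, and shifts inside that interval would have been missed.

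Other hairpins give a scale for the arms of miR-483. Both arms reached 10 normalized reads in the higher library for 70 hairpins by name, and the median absolute difference in arm balance between the libraries was 0.67, close to the 0.65 of miR-483. The difference was smaller than that of miR-483 for 33 of them, and it was 1 or more for 20. The arms of miR-483 were also more even than most. The median hairpin had an absolute log2 arm ratio of 3.47 in UM-SCC6-M, against 1.61 for miR-483, and 22 of the 70 were more even. These names may not all be separate measurements, so the counts are a rough scale. The arms of miR-486 had 152 and 150 reads in UM-SCC6-M, and those of miR-3158 were also nearly equal. miR-3184-3p had 12388 reads there and miR-423-5p had 12390.

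Both arms at least 2-fold higher were found for 3 of these 70 hairpins: miR-483, miR-365a and miR-424. miR-483 is among the 3 by the choice of its arms, and passes the floor only through its UM-SCC6-M values, so nothing is read from that. The log2 ratios were 1.38 and 1.05 for the 3p and 5p arms of miR-365a, and 2.03 and 1.01 for those of miR-424. Both arms at least 2-fold lower were found for 2 hairpins by name, miR-2682 and miR-3158. The 3p and 5p names of miR-3158 had nearly equal reads, 154 and 153 in UM-SCC6-M and 310 and 306 in the parental library. They may therefore not be 2 separate measurements. Only 1 arm passed 2-fold for 20 hairpins, and for none did the arms pass it in opposite directions. The arms of 1 hairpin share their precursor and their libraries, so they are not separate evidence of a difference between the cultures.

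**Figure D3:**
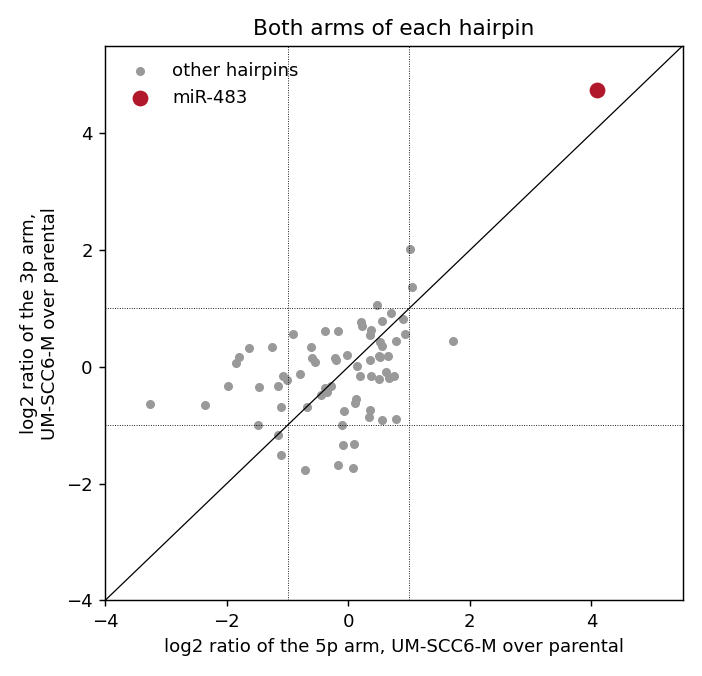
Log2 ratio, UM-SCC6-M over parental, of the 3p arm against that of the 5p arm for the 70 hairpins with both arms at 10 or more normalized reads in the higher library. The solid line marks equal ratios and dotted lines 2-fold. miR-483 lies at 4.75 and 4.09, apart from the other hairpins, which follows from the choice of its arms by their ratios.

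The imprinted neighbour miR-675 was not used in choosing the arms. miR-675-3p, cut from the H19 transcript, had 73 reads in UM-SCC6-M and 87 in the parental library, a log2 ratio of -0.41 (-0.88 to 0.06). miR-675-5p had 39 against 44 reads and a log2 ratio of -0.33 (-0.99 to 0.33). For neither arm did the reads show a difference beyond counting error. Summed, the miR-675 arms had 112 against 131 reads and a log2 ratio of -0.38 (-0.76 to -0.01), and with both libraries set to equal total miRNA reads it was -0.14 (-0.52 to 0.24).

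Set against each other, the hairpins changed order. In the parental library miR-675 had 6.24 reads for each read of miR-483, while in UM-SCC6-M miR-483 had 5.13 reads for each read of miR-675. The ratio of miR-483 to miR-675 was 32.0-fold higher in UM-SCC6-M (exact conditional interval 19.02 to 55.5), and this value does not depend on the scaling. It is a description of these 2 libraries, since miR-483 was chosen for its ratio. The IGF2 and H19 transcripts themselves were not analysed here.

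Names were placed on chromosome 11 with RefSeq, where 480 of the 543 miRNAs matched. Over the whole chromosome, 9 other miRNAs assigned to 1 hairpin each, miR-675-3p among them, reached 10 normalized reads. Their median log2 ratio was -0.41, with 1 at least 2-fold higher and 2 at least 2-fold lower, where the shares over all 288 are 7.29% and 15.6%. Counts this small do not set the chromosome apart. The highest was miR-1260b at 1.13, 94.2 Mb away. miR-210-3p, from the same end of the chromosome at a distance of 1.57 Mb, was at 0.13 (476 reads against 392). The lower ones were miR-125b-1-3p at -2.73 and miR-100-5p at -1.68, near the far end of the long arm and about 120.0 Mb from MIR483. None of the 23 other miRNAs so assigned on the chromosome, at any read number, had a log2 ratio above 1.68, the value of miR-194-3p on 12 reads against 3. Because the miR-483 arms were chosen for the largest ratio, that they stand above these follows from the choice.

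**Figure D4:**
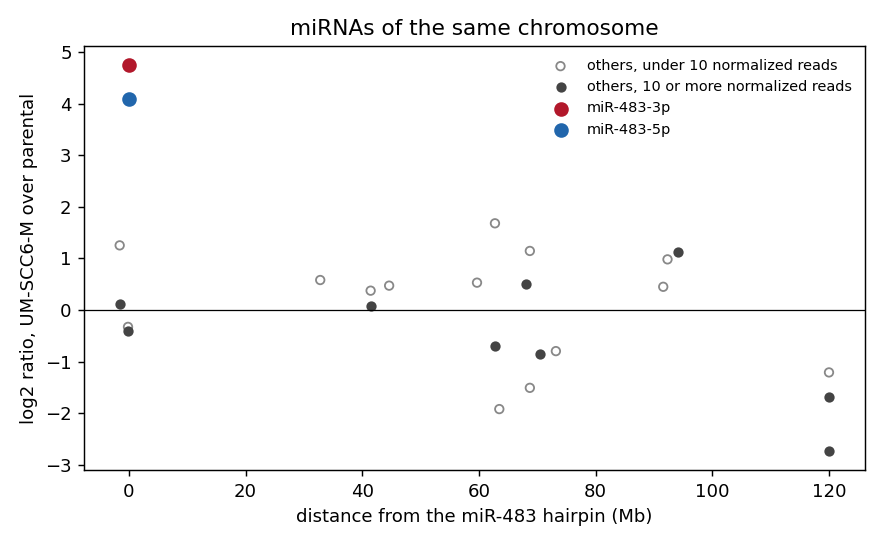
Log2 ratio, UM-SCC6-M over parental, of chromosome 11 miRNAs against the distance from the miR-483 hairpin in Mb. Filled points had 10 or more normalized reads in the higher library and open points fewer. The miR-483 arms, chosen for the largest ratio and so above all others by that choice, are at 4.75 and 4.09. The miR-675 arms are at -0.41 and -0.33.

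The miRNAs listed from the DLK1-DIO3, MEST and GNAS imprinted regions were read little or not at all. Of the 12 names listed, 8 had an entry and none reached 10 normalized reads. Imprinted regions outside that list were not examined as a group. miR-379-5p had 30 against 29 reads and miR-411-5p had 7 against 8. miR-381-3p, with 13 against 60, had a log2 ratio of -2.32 (-3.35 to -1.48), and miR-296-3p, with 1 against 12, one of -3.21 (-9.16 to -0.98). miR-409-3p, with 15 against 6, was at 1.10 (-0.28 to 2.82). Both libraries had 0 listed for miR-127-3p and for miR-335-5p and miR-335-3p, which come from an intron of MEST.

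Secreted ligand genes also host miR-218 and miR-126 in their introns. miR-218-5p, from introns of the axon guidance genes SLIT2 and SLIT3, was 6.33-fold lower in UM-SCC6-M. The arms of miR-126, from an intron of EGFL7, a ligand of endothelial cells, differed from each other, the 5p arm standing at 0.78 and the 3p arm of miR-126 at -0.90.

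Other miRNAs reported to act on the targets of miR-483-3p were read next. Of the others reported to repress BBC3, 5 reached 10 normalized reads and none was 2-fold apart, where 7.29% of all 288 are at least 2-fold higher and 15.6% at least 2-fold lower, so a count of 0 in a list this short is no result about it. Its members had a median log2 ratio of -0.34 against -0.08 over all 288. miR-222-3p had 4280 against 6234 normalized reads and miR-221-3p 4118 against 5196. miR-24-3p, at -0.71, was the lowest. miR-483-3p at 51.7 normalized reads was the least abundant of the list in UM-SCC6-M, and under the authors' scaling the other members had log2 ratios between -0.71 and -0.18. Under scaling to the totals the median of the other 5 was -0.09.

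Of the others reported to repress SMAD4, 6 reached the floor and none was 2-fold apart, against the same 7.29% and 15.6%, which again says nothing particular of so short a list. The median was -0.26. miR-146a-5p, induced by NF-kB, had 13061 against 10557 normalized reads. miR-182-5p and miR-20a-5p were both at 0.09, and miR-27a-3p was lowest at -0.99. miR-130a-3p had 54.7 against 84.5 normalized reads, a level in UM-SCC6-M near that of miR-483-3p, and miR-18a-5p was below it at 19.9 against 30.3. The median was -0.01 under scaling to the totals.

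For the IGF pathway itself, a list of miRNAs reported to repress the receptor IGF1R or other parts of the pathway was examined. Of 7 members at the floor, none was at least 2-fold higher and 2 were at least 2-fold lower in UM-SCC6-M. The shares over all 288 are 7.29% and 15.6%, so these counts are no result about so short a list. The median of the 7 members was -0.46. miR-100-5p, which represses IGF1R and MTOR, had 7107 normalized reads against 22784, 3.21-fold lower. miR-140-5p was 2.01-fold lower, a value that fell inside 2-fold under scaling to the totals. miR-99a-5p, of the same family as miR-100-5p, went the other way at 0.53. miR-7-5p, the most abundant member in UM-SCC6-M, was at -0.42. miR-182-5p, with 8016 against 7528 normalized reads, was at 0.09. The remaining members at the floor, miR-139-5p and miR-486-5p, were at -0.86 and -0.46. miR-375 and miR-145-5p were listed at 0 in both libraries.

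miRNAs that mark other cell types were compared because miR-483 is not particular to squamous epithelium. Of the 10 epithelial and squamous names, 6 were read in both libraries. The most abundant went different ways, miR-200b-3p with 17481 against 12823 normalized reads and miR-200a-3p with 1344 against 2674. miR-429 had 793.1 against 844.7 and miR-31-5p 93.9 against 98.5. miR-200c-3p, with 15 against 20 reads, and miR-203a-3p, with 23 against 7, were rare. Of the same list miR-944 and miR-184 were listed at 0, and miR-205-5p and miR-141-3p have no entry under these names. Of the liver markers, 3 of 5 had known reads, with a summed level of 295.8 against 431.2 normalized reads. Of these, miR-122-5p had 2 reads against 15, miR-192-5p 1949 against 2835 and miR-194-5p 526 against 395. Of the blood markers only miR-486-5p had known reads, at 17.9 against 24.6 normalized reads, and miR-451a and miR-142-3p were listed at 0. Islet and neuroendocrine markers summed to 9260 against 12390 normalized reads, nearly all of it miR-7-5p. Of the 7 embryonic and placental names listed, only miR-519a-3p had known reads, 12 against 33. That list is not complete: miR-516a-5p (149 reads against 136) and miR-522-3p (126 against 129) are not on it. Muscle markers summed to 115.2 against 346.0 normalized reads. Endothelial markers, which are the 2 arms of miR-126, summed to 550.5 against 986.1.

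Stromal markers were the 1 cell type list with a higher sum in UM-SCC6-M apart from the epithelial one, at 113.2 against 64.6 normalized reads. Of its 7 names, 4 had known reads. Higher by 2.07-fold were miR-199a-3p (183 reads against 79) and miR-199b-5p (730 against 316). Lower were miR-143-3p, on 34 reads against 78, and miR-199a-5p, on 1 against 13. Whether the reads of miR-199a-3p come from the miR-199a or the miR-199b hairpin was not tested, so the higher names may not be separate measurements. The other members of that list were at 0 in both columns. The part of other cell types in the miR-483 values was not tested.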

How the data were processed

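Per the labels' protocols, adapters were ligated to small RNA in 3 µg of total RNA per sample. The submitters' processing notes name Bowtie; not given in the sources used here are its version, the genome build, the miRNA database and the scaling. The deposited table has 1 signal column per library, scaled by the authors between libraries, and the authors' own log2 fold changes, p-values and q-values, per the file headers.

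The listed values of a column were all multiples of a single step (tolerance 0.001 reads), taken as the worth of 1 read. This worth was 0.133 for the parental column and 0.119 for the other. Where 1 column was listed as 0, its reads came from the deposited fold change. Reads were known in both libraries for 543 of 1178 named miRNAs. Log2 ratios set UM-SCC6-M over the parental line, with 0.5 reads added to each library. With 1 library per group no test was made. Intervals are exact binomial ones. Their coverage was checked only on simulated reads that held counting error alone, so that check does not bear on variation between libraries or cultures.

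miRNAs named are the miR-483 arms, the 5 next ratios, the 5 closest ratios to each arm, and members of the lists, up to 4 abundant and those 2-fold apart; neighbours in level, arms and chromosome were named after their values were seen. The members and lists were chosen with earlier results of these data known. Python 3.11.15, numpy 2.4.6, pandas 2.3.3, scipy 1.17.1 and matplotlib 3.10.9 were used.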

Additional observations from a re-analysis of the deposited data

How the results depend on the processing

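The log2 ratios of miR-483-3p, miR-483-5p and their sum stayed within their counting intervals under 4 other scalings and with 0 or 5 reads added, and those of the single arms also with the deposited fold changes. miR-483-3p ranged from 4.37 (5 reads added) to 4.99 (total reads), miR-483-5p from 3.46 to 4.34, and the sum from 4.33 to 4.83. The arm balance difference was 0.61 with 0 and 0.91 with 5 reads added. miR-483-3p kept rank 1 at a floor of 10, without a floor, under scaling to total reads and with 5 reads added, and lies under a floor of 200. The background counts moved with the thresholds. At least 2-fold higher were 13 miRNAs, against 21 at a floor of 10, 6 at a floor of 200, 22 under scaling to total reads, which moves every log2 ratio up by 0.24, 32 at 1.5-fold and 2 at 4-fold. At least 2-fold lower were 23, against 45, 15, 20, 46 and 5. No paired analysis was possible because each group has 1 library. The low parental reads of the miR-483 arms, 14 and 7, are what chiefly limits the precision of their ratios.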
